A study of Mus musculus with 60 samples.

Results

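The Zfp genes described here are the mouse genes whose symbol is Zfp followed by a number and nothing else. The name stands for zinc finger protein, and the symbol alone set membership. The genes and role lists named below were chosen with earlier results of these data known. In the 10 tables analysed here 332 such genes were found among 13986 genes, and 327 of them stood in every table. Zfp69, Zfp296, Zfp473, Zfp541 and Zfp977 were absent from at least 1 table. The tissue was whole, dorsal or ventral hippocampus of wild type C57BL/6 mice aged 105 postnatal days, and poly(A) RNA was sequenced. Treated mice had undergone Handling, Restraint or Swim 45 minutes earlier and controls came straight from the Homecage, which gives 12 groups with 5 libraries each and 60 libraries in all. All groups share the strain, the genotype and the age, and the series record counts 5 mice for a condition. It is not known here whether a dorsal and a ventral library came from the same mouse. Each treatment table sets 1 treatment against the Homecage group of its own region, so the 3 treatments of a region share their controls. The last table sets ventral against dorsal Homecage hippocampus.

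Most Zfp proteins carry tandem C2H2 fingers, short folded units that can bind DNA. In each a zinc ion is held by a pair of cysteines and a pair of histidines. Many add a KRAB domain that recruits the corepressor Trim28, which in turn brings the histone methyltransferase Setdb1 and silences retroelements and imprinted loci. Other genes with the same symbol stem encode unrelated proteins: Zfp36, known as tristetraprolin, has CCCH fingers that bind AU-rich elements in mRNA and hasten decay. KRAB zinc finger genes arose by repeated tandem duplication and often lie in clusters of similar sequence.

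Coding sequences of the GENCODE M21 annotation show this make-up. A search for C2H2 fingers found at least 2 in 312 of the 332 genes, at least 10 in 190, a median of 11 and a maximum of 36 in Zfp142. No finger of this form was found in 10 genes: Zfp36, Zfp185, Zfp330, Zfp365, Zfp503, Zfp703, Zfp781, Zfp839, Zfp935 and Zfp972. Only the longest annotated coding sequence of a gene was searched, so some of these 10 may still encode C2H2 fingers. CCCH fingers were matched in Zfp36 (2 fingers) and Zfp330. A short run of residues typical of the KRAB A box was matched in 146 genes and not in 186. This search misses members, since Zfp57, a textbook KRAB protein, was not matched. Transcripts of Zfp genes had a median GC content of 45.8%, against 50.3% over all genes, and ranged from 35.6% to 65.4%. Their median exon length of 4587 bases was close to the 4586 of all genes. By chromosome, 87 lie on chromosome 7, 40 on 17, 30 on 13, 23 on 8 and 20 on 2. With neighbours chained where their starts lay within 1 Mb, 239 genes formed 45 clusters and 93 stood alone. The 16 clusters of 5 or more held 159 genes.

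As a group these genes were expressed at low levels. Levels are given as CPM, a gene's count scaled by the total count of its group in the usual way, computed from the authors' deposited group means, and between genes only as CPM per kilobase of exon. In whole Homecage hippocampus the median was 2.89 CPM per kilobase, against 5.58 over all genes, and the range ran from 0.103 (Zfp473) to 66.9 (Zfp365). Zfp365, which encodes a centrosomal protein that binds DISC1, led the order. It was followed by Zfp706 at 43.3 CPM per kilobase, by the RNA-binding Zfp106 at 28.4 and by the spindle protein gene Zfp207 at 24.8. The ubiquitin ligase gene Zfp91 (16.2), Zfp664 (15.0), Zfp740 (14.2) and Zfp260 (14.1), first described as a cardiac factor, came next in CPM per kilobase. Zfp664 and Zfp740, and likewise Zfp740 and Zfp260, lay close together in this order, and no spread between libraries is held here to separate neighbours. Zfp189 was 36th with 8.03 CPM per kilobase, Zfp46 was 37th with 7.77, Zfp462 60th with 5.89, Zfp57 169th with 2.77 and Zfp423 182nd with 2.45. Zfp36 was 294th with 0.782 CPM per kilobase and Zfp82 310th with 0.614. Zfp238, chosen for naming, was not listed under that symbol, and other names of the gene were not searched. All Zfp genes together took 0.728% of the counts of whole Homecage hippocampus, 0.750% in dorsal and 0.754% in ventral Homecage. Over the 12 groups this share was lowest after Swim in whole hippocampus (0.680%) and highest after Swim in dorsal hippocampus (0.759%).

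The mean estimated counts of a group summed to between 19.9M and 25.01M (M, mega), which is the depth behind each value. No library was analysed singly here, so the replicate error enters only through the authors' adjusted p, and an error given as SE was derived from the deposited fold change and p. Whether the 5 libraries of a group came from separate animals is stated only through the count of mice in the series record. Slc17a7, the vesicular glutamate transporter of hippocampal pyramidal and granule cells, stood between 1091 and 1348 CPM in all 12 groups. The choroid plexus gene Ttr stood at 1229 CPM in dorsal Restraint and 1168 in ventral Handling, against 40.5 and 27.6 CPM in the Homecage groups of those regions. In whole hippocampus Ttr stood at 16.4 CPM in Homecage, 72.6 after Handling, 60.3 after Restraint and 46.9 after Swim. Choroid plexus markers were called higher in 2 of 4 cases in dorsal Restraint and 6 of 6 in ventral Handling. They were also called higher in 1 of 4 in whole Handling, 2 of 5 in whole Restraint and 1 of 4 in ventral Restraint. The part of these markers in the Zfp values was not tested. In bulk tissue, fewer cells of a type and less RNA per cell cannot be told apart. Many Zfp genes have near-identical copies. In either or both groups of a table, the 5 libraries' summed estimated count was not a whole number for 57.9% to 64.0% of Zfp genes. The same held for 57.0% to 59.7% of all genes, so the deposited counts are estimates rather than whole reads. Which copies share reads was not tested.

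Few Zfp genes changed outside ventral Swim. By an adjusted p under 0.05 in the authors' deposited tables, no Zfp gene was called after Handling in whole (328 tested), dorsal (329) or ventral hippocampus (331), where 0.395%, 0.125% and 0.856% of all genes were called in either direction. At an unadjusted p under 0.05 in those authors' deposited tables, there were 25, 8 and 26 Zfp genes, beside 5.06%, 2.84% and 7.28% of all genes. The lowest adjusted p after Handling in the authors' deposited tables was 0.0591, for Zfp810 in ventral hippocampus at a log2 fold change of -0.34. That gene was chosen after its values were seen. Restraint raised 1 of 329 Zfp genes in whole hippocampus (0.504% of all genes rose) and lowered none (0.0365% of all genes fell), and 15 had an unadjusted p under 0.05 in the authors' deposited table (3.92% of all genes did). In dorsal hippocampus 1 of 328 rose and 1 fell, beside 0.381% and 0.235% of all genes, by the authors' deposited table. In ventral hippocampus Restraint raised 2 of 330 and lowered 5, beside 1.48% and 0.916% of all genes. Swim lowered 3 of 328 in whole hippocampus (0.0585% of all genes fell) and raised none (0.336% of all genes rose), with 37 at an unadjusted p under 0.05, 35 of them lower, in the authors' deposited table (5.2% of all genes). None of 330 was called after Swim in dorsal hippocampus, where 0.447% of all genes were called and 30 Zfp genes had an unadjusted p under 0.05 (11.2% of all genes did). The ventral Swim table stood apart with 9 of 330 higher and 26 lower, beside 4.65% and 2.29% of all genes. In all, 41 different Zfp genes were called in at least 1 of the 9 treatment tables. The same count was not made over all genes, so this number has no background beside it. With the trend of fold change on GC content subtracted, 1 Zfp gene was higher in whole Restraint (0.497% of all genes higher, 0.0292% lower) and 0 were called in whole Swim (0.321% and 0.0365%). Dorsal Restraint then had 1 lower (0.337% and 0.11%), and ventral Restraint 2 higher and 2 lower (0.982% and 0.764%).

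**Figure D1:**
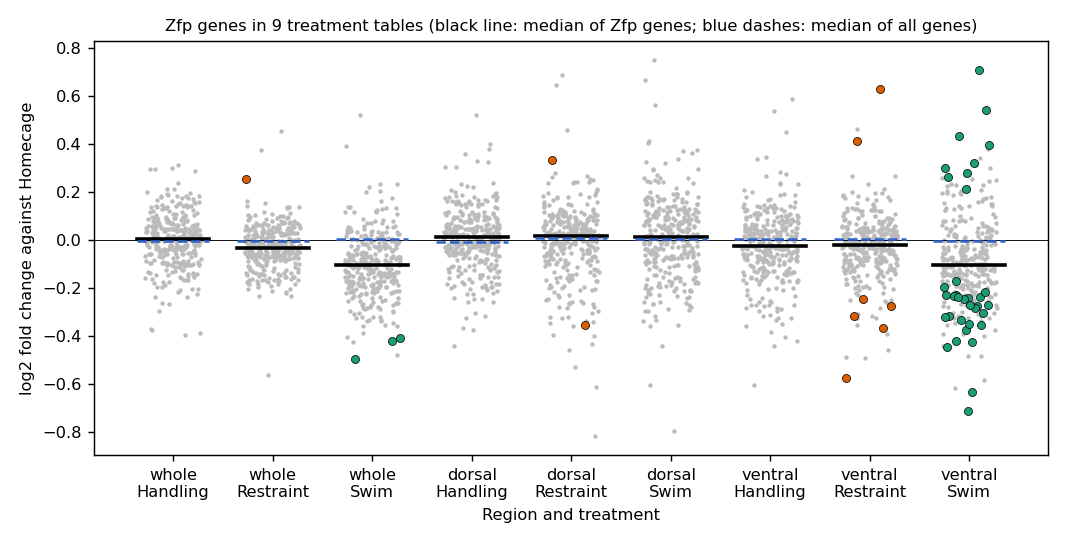
Log2 fold change against Homecage of each Zfp gene (point) in the 9 treatment tables, with called genes filled and outlined, the median of Zfp genes as a black line and that of all genes as blue dashes. Coloured points are few outside ventral Swim, where 9 lie above and 26 below 0, and the black line lies at -0.11 in whole Swim and -0.10 in ventral Swim.

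Zfp189 was the Zfp gene called in the most treatment tables. It encodes a factor with 16 C2H2 fingers that has been studied in the prefrontal cortex of stressed mice. Its level in whole hippocampus was 24.1 CPM in Homecage, 27.6 after Handling, 28.8 after Restraint and 27.9 after Swim, from the authors' deposited means. In dorsal hippocampus the authors' deposited means give 26.9, 31.5, 34.0 and 33.9 CPM in the same order. Ventral hippocampus went from 21.5 CPM in Homecage to 24.4, 28.5 and 26.5 by the authors' deposited means. The Homecage group was thus the lowest of the 4 in each region, and Restraint the highest. The log2 fold change after Restraint was 0.25 (SE 0.06, adjusted p 0.00537) in whole, 0.33 (SE 0.08, adjusted p 0.0183) in dorsal and 0.41 (SE 0.08, adjusted p 8.7e-05) in ventral hippocampus in the authors' deposited tables. After Swim it was called in ventral hippocampus (0.30, SE 0.08, adjusted p 0.0071), and the authors' deposited tables give 0.33 (adjusted p 0.0545) in dorsal and 0.22 (adjusted p 0.786) in whole hippocampus. Handling values in the authors' deposited tables were 0.20, 0.21 and 0.17 in whole, dorsal and ventral hippocampus, with adjusted p of 0.507, 1.0 and 0.672. Within a region the 3 treatment values rest on the same Homecage libraries. With the GC trend subtracted, the call after Restraint was lost in dorsal hippocampus (0.29, adjusted p 0.0983). In dorsal Swim it was called with the length trend subtracted (adjusted p 0.0201) or with total-count scaling (0.0477). After subtraction of the GC trend the calls held in whole (adjusted p 0.00102) and ventral Restraint (1.6e-05) and in ventral Swim (0.39, adjusted p 2.2e-04).

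Zfp46 went the other way. Its 12-finger product carries a KRAB-A-like run. From the authors' deposited means it stood at 51.1 CPM in dorsal Homecage and at 42.9, 39.9 and 43.9 CPM after Handling, Restraint and Swim. In ventral hippocampus the authors' deposited means give 41.2 CPM in Homecage and 35.4, 34.6 and 37.1 after the treatments. Whole hippocampus had 40.5 CPM in Homecage and 35.0, 34.5 and 34.8 after them by the authors' deposited means. Homecage was the highest group in each region. The fall was called after Restraint in dorsal (log2 fold change -0.35, SE 0.08, adjusted p 0.00415) and ventral hippocampus (-0.24, SE 0.06, adjusted p 0.00837) in the authors' deposited tables. Both calls held with the GC trend subtracted (adjusted p 0.00506 and 0.00405). In whole Restraint the authors' deposited table gives -0.23 with an adjusted p of 0.0881. The other 6 treatment values of Zfp46 in the authors' deposited tables lay between -0.26 and -0.14 and were not called.

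Zfp36, the mRNA decay factor and an immediate early gene in many cell types, rose in 1 table. In ventral hippocampus its level was 2.89 CPM in Homecage, 3.05 after Handling, 4.47 after Restraint and 3.38 after Swim, by the authors' deposited means. The whole hippocampus groups stood at 2.71, 2.83, 3.68 and 2.94 CPM and the dorsal ones at 3.45, 3.32, 3.93 and 3.34 in the same order, from the authors' deposited means. Restraint was the highest of the 4 groups in each region. The ventral Restraint rise was 0.63 (SE 0.16, adjusted p 0.0062) in the authors' deposited table, and 0.60 with an adjusted p of 0.0137 after the GC trend was subtracted. Whole and dorsal Restraint had 0.46 (adjusted p 0.74) and 0.18 (adjusted p 0.88) in the authors' deposited tables, and no other table called this gene.

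Zfp82, a KRAB-type gene with 12 fingers in a cluster on chromosome 7, fell in ventral hippocampus. By the authors' deposited means it went from 4.94 CPM in ventral Homecage to 3.84 after Handling, 3.28 after Restraint and 2.996 after Swim. The authors' deposited table gives -0.71 (SE 0.13, adjusted p 2.5e-05) after Swim, and the one for Restraint gives -0.58 (SE 0.13, adjusted p 0.00249). Both held with the GC trend subtracted, at -0.66 (adjusted p 2.5e-04) and -0.56 (adjusted p 0.00465). The mean count of Zfp82 was under 100 in both treated groups, so the filter on mean count leaves both calls out. Ventral Handling had -0.36 with an adjusted p of 0.549 in the authors' deposited table. Levels elsewhere were 3.69, 3.296, 3.37 and 3.22 CPM in dorsal and 3.71, 4.00, 3.95 and 3.48 in whole hippocampus, in the order Homecage, Handling, Restraint and Swim, by the authors' deposited means. Ventral Homecage was thus the highest of the 12 groups, and all 3 ventral values rest on it. The same Homecage group put Zfp82 0.39 higher in ventral than dorsal hippocampus (adjusted p 0.013) in the authors' deposited table.

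**Figure D2:**
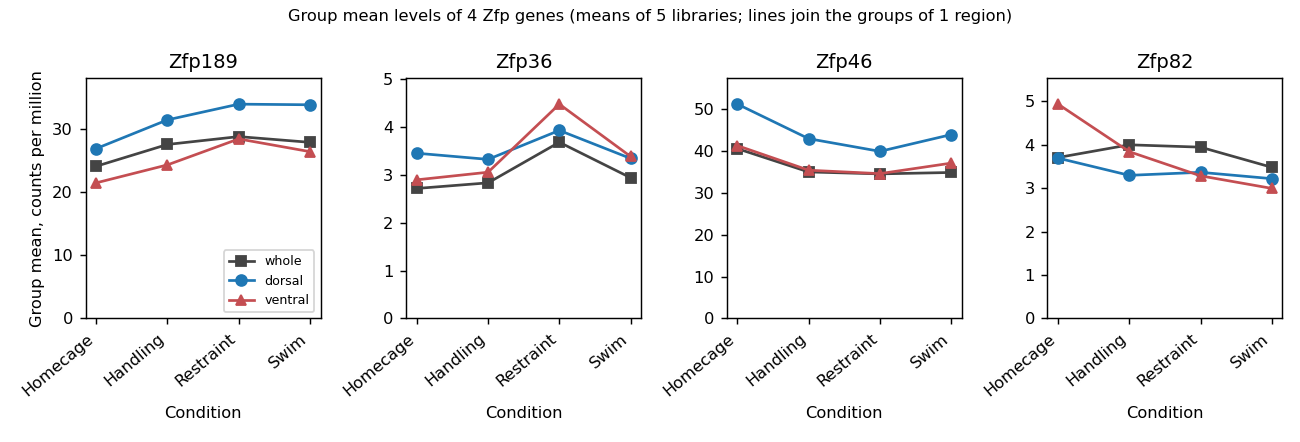
Group mean level (CPM, linear axis from 0) of Zfp189, Zfp36, Zfp46 and Zfp82 in the 4 conditions of whole, dorsal and ventral hippocampus, with a point per group and no error bars because values of single libraries were not analysed. Zfp189 is lowest and Zfp46 highest in Homecage in each region, Zfp36 peaks after Restraint at 4.47 in ventral hippocampus, and Zfp82 goes from 4.94 to 2.996 in ventral hippocampus while its dorsal and whole groups lie between 3.22 and 4.00.

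Promoter sequence is shown for the genes that rose after Restraint and for the gene with the largest fall in ventral Swim, because CREB, EGR and serum response factors act at such windows in active neurons. Each is the 250 bases before the RefSeq start on GRCm38.p6, written 5′ to 3′ on the gene's strand in lower case with motif matches in capitals. The Zfp189 window is chr4:49520926-49521175 on the plus strand, that of Zfp36 is chr7:28379229-28379478 on the minus strand, and that of Zfp82 is chr7:30072824-30073073 on the minus strand.
Zfp189: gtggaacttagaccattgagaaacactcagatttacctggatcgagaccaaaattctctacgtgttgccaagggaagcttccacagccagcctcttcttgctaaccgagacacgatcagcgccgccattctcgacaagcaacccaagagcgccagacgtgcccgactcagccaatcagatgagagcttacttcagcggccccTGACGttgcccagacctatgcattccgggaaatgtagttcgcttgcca
Zfp36: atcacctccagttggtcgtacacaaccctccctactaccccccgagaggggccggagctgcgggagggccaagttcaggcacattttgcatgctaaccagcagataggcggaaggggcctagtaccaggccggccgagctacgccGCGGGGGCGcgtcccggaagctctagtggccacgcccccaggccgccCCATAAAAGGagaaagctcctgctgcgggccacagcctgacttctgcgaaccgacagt
Zfp82: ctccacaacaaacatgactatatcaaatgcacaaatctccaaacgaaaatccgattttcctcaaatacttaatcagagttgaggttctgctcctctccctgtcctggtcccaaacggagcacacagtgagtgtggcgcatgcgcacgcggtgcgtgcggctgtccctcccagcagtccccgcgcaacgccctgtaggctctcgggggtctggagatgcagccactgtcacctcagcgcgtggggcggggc
In the Zfp189 window the capitals mark a short CRE form (TGACG), and in the Zfp36 window an EGR site (GCGGGGGCG) and a CArG box. The Zfp82 window held none of the 6 motifs searched. Both strands were searched, and every full CRE (TGACGTCA) also counts as a short one. RefSeq entries were matched for 275 of 332 Zfp genes, giving 336 windows among 32851. The short CRE form was in 27.1% of Zfp windows and 17.8% of all windows, the full CRE in 3.27% and 1.55%, the EGR site in 2.68% and 2.57%, and the CArG box in 0.893% and 1.47%. The TATA box core TATAAA was in 6.85% of Zfp windows and 12.4% of all windows. The palindromic glucocorticoid response element was in 0 Zfp windows and 0.00913% of all windows. These shares describe letters in a window and not binding.

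The remaining calls in the Restraint and whole Swim tables were falls of multi-finger genes at low level. In ventral Restraint the authors' deposited table has Zfp945 at -0.27 (adjusted p 0.0283), Zfp759 at -0.31 (0.0435) and Zfp712 at -0.37 (0.0449). From the authors' deposited means Zfp945 went from 14.3 to 11.7 CPM, Zfp759 from 8.37 to 6.66 and Zfp712 from 6.87 to 5.28. With the GC trend subtracted, Zfp945 was at -0.20 (adjusted p 0.259), Zfp759 at -0.26 (0.182) and Zfp712 at -0.30 (0.195), and none was called. After Swim in whole hippocampus the authors' deposited table has falls of Zfp58 (-0.50, SE 0.13, adjusted p 0.03), Zfp174 (-0.41, SE 0.11, 0.0333) and Zfp563 (-0.42, SE 0.11, 0.0437). Their CPM from the authors' deposited means went from 8.31 to 5.84 for Zfp58, from 11.2 to 8.40 for Zfp174 and from 8.78 to 6.51 for Zfp563. Subtraction of the GC trend left log2 fold changes of -0.45 for Zfp58, -0.39 for Zfp174 and -0.36 for Zfp563, with adjusted p values of 0.115, 0.0753 and 0.276.

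Swim in ventral hippocampus gave most of the calls, and they split by base composition. The highest calls in the authors' deposited table were Zfp771 at 0.71 (SE 0.20, adjusted p 0.013) and Zfp628 at 0.54 (SE 0.11, adjusted p 1.7e-04). By the authors' deposited means Zfp771 went from 3.13 to 5.12 CPM and Zfp628 from 8.17 to 11.9. Zfp64 (0.40, adjusted p 0.0262), Zfp598 (0.32, 0.00259) and Zfp523 (0.26, 0.00208) also rose in the authors' deposited table, Zfp598 being a ubiquitin ligase that marks collided ribosomes. GC content was 64.1% for Zfp771, 63.5% for Zfp628, 57.4% for Zfp64, 59.1% for Zfp598 and 58.3% for Zfp523, against 44.2% for Zfp189. Among the falls besides Zfp82 the authors' deposited table has Zfp260 at -0.23 (adjusted p 0.00131), Zfp945 at -0.35 (0.00296), Zfp655 at -0.24 (0.00452), Zfp759 at -0.37 (0.00889) and Zfp40 at -0.24 (0.0112). GC content of these was 42.6% for Zfp260, 35.99% for Zfp945, 43.5% for Zfp655, 39.4% for Zfp759 and 37.9% for Zfp40. Zfp260 went from 81.8 to 69.4 CPM, Zfp655 from 37.5 to 31.6 and Zfp40 from 22.7 to 19.2, by the authors' deposited means.

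Divided into 3 classes of GC content, at 42.7% and 49.4%, the 110 low-GC Zfp genes tested in ventral Swim had 0 higher, 21 lower and a median log2 fold change of -0.20. The 110 of the middle class had 1 higher, 4 lower and a median of -0.11, and the 110 of the high class had 8 higher, 1 lower and a median of 0.06. Across the 330 Zfp genes Spearman's rho of log2 fold change on GC content was 0.75, against 0.70 over all genes, a description of points that share libraries and controls. The sign of this relation was not the same in all tables. In dorsal Swim rho was -0.68 for Zfp genes (-0.60 for all genes), with medians of 0.12 in the low class and -0.11 in the high class. It was also negative in dorsal Restraint (-0.55) and dorsal Handling (-0.37), and positive in ventral Restraint (0.53), ventral Handling (0.52), whole Swim (0.42) and whole Restraint (0.38). In whole Handling it was -0.27. With the trend over all genes subtracted from ventral Swim, the calls went from 35 to 2, and both, Zfp189 and Zfp82, were among the 35. All genes went from 640 higher and 315 lower to 76 and 35, or 0.552% and 0.254%. Thalamus markers moved in the same table: 2 of 3 were lower, the median was -0.46, and their summed mean went from 2061 in Homecage to 1550 after Swim in the authors' deposited table. Of 8 hippocampal neuron markers 2 were higher, with a median of 0.15 and summed means of 51939 and 55769. None of these markers was at 0, and their part in the Zfp values was not tested.

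**Figure D3:**
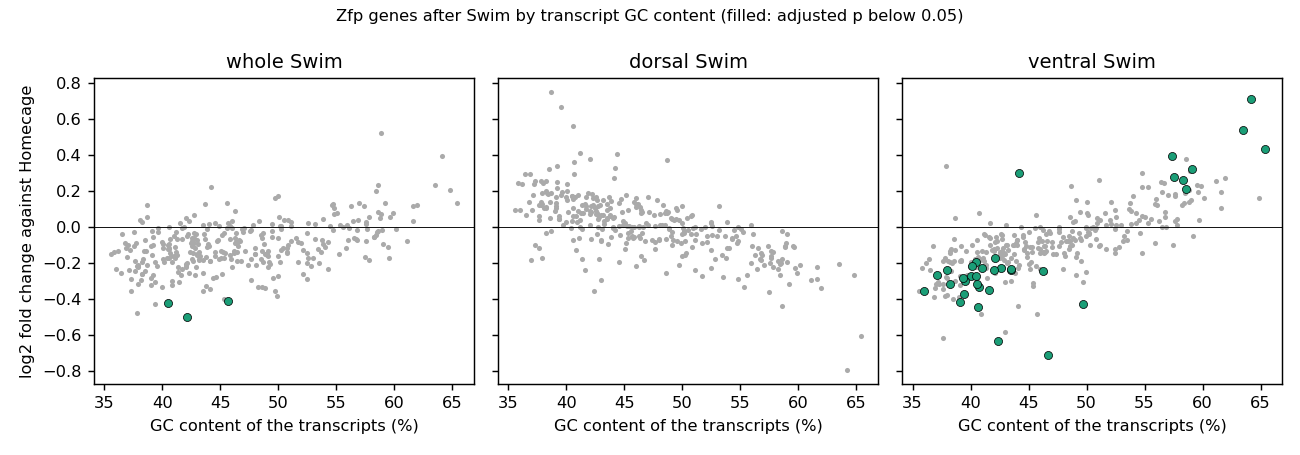
Log2 fold change after Swim of each Zfp gene (point) against the GC content of its transcripts (%), in whole, dorsal and ventral hippocampus, with called genes filled. Points climb with GC content in ventral hippocampus (rho 0.75) and to a lesser degree in whole hippocampus (0.42), and descend in dorsal hippocampus (-0.68). Zfp189, near 44.2%, is the only gene of the middle GC class that was called higher in ventral Swim.

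The typical Zfp gene was lower after Swim in whole hippocampus. The median log2 fold change was -0.11 in the authors' deposited table, against 0.00 over all genes, and 79.6% of Zfp genes lay below 0, against 48.6% of all genes. With the GC trend subtracted the median was -0.09 and 77.1% lay below 0. Subtracting the trend on exon length left it at -0.11. In ventral Swim the median was -0.10 (all genes -0.01), with 71.5% below 0, against 51.6% of all genes. Here the GC trend took the median to -0.04 and the share below 0 to 67.9%. In whole Restraint 66.6% of Zfp genes lay below 0 with a median of -0.03. The medians of the other 6 treatment tables lay between -0.02 and 0.02. In whole Swim the low, middle and high GC classes had medians of -0.15, -0.13 and -0.02. Oligodendrocyte markers had a median of 0.32 in the same table with 0 of 3 called, their summed mean being 63742 in Homecage and 80373 after Swim in the authors' deposited table. Blood markers (0 of 2 called) had a median of 0.92 and summed means of 2571 and 5145, and choroid plexus markers (0 of 4 called) 0.87 and summed means of 883 and 1620, in the authors' deposited table. The medians of astrocyte (0.15), microglia (0.15), thalamus (0.12), hippocampal neuron (0.00) and endothelium markers (-0.18) lay closer to 0 with no call, and the part of these markers in the Zfp values was not tested.

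**Figure D4:**
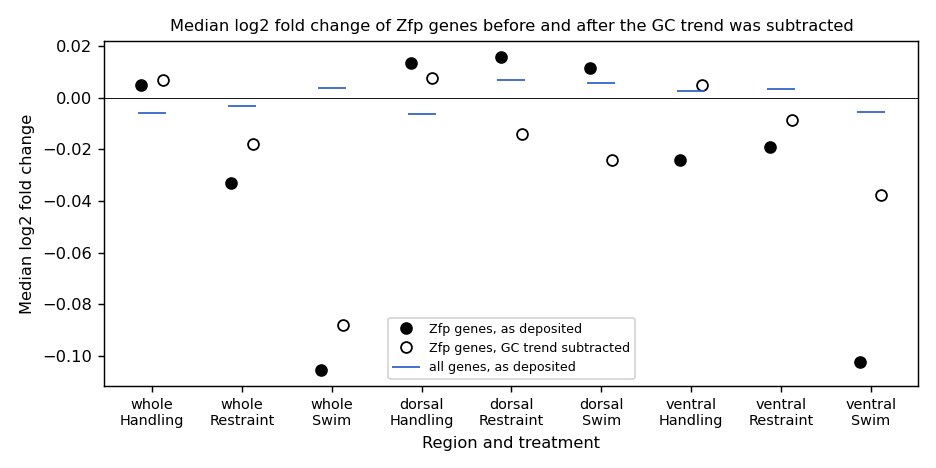
Median log2 fold change of Zfp genes in the 9 treatment tables as deposited (filled circles) and with the GC trend subtracted (open circles), beside the median of all genes as deposited (blue dashes). The open circle stays at -0.09 in whole Swim and moves from -0.10 to -0.04 in ventral Swim.

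Protein class and genome position were compared next. Over all genes 4.65% were higher and 2.29% lower in ventral Swim, the table of the counts below. Of its 35 Zfp calls only those of Zfp189 and Zfp82 were kept with the GC trend subtracted. In ventral Swim 0 of 145 genes with the KRAB-A-like run were higher and 15 lower (median -0.16), and of 185 without it 9 were higher and 11 lower (median -0.04). After subtraction of the GC trend those medians were -0.07 and -0.02. In whole Swim the medians were -0.14 and -0.07, and -0.10 and -0.07 after subtraction. Genes with 10 or more fingers had 2 higher and 20 lower of 189 in ventral Swim (median -0.14), and genes with 2 to 9 fingers 6 and 6 of 121 (median -0.05). The 20 genes with 0 or 1 finger had 1 higher, Zfp598, and a median of 0.00. The largest cluster, 22 genes on chromosome 17 from Zfp160 to Zfp13, has a median GC content of 38.6%. Its median log2 fold change was -0.24 in ventral Swim with 4 genes lower, -0.16 in whole Swim and 0.17 in dorsal Swim. After subtraction of the GC trend these were -0.08, -0.11 and 0.06. A cluster of 18 on chromosome 13, from Zfp712 to Zfp273 with a median GC content of 40.3%, had -0.29 in ventral Swim with 5 genes lower, -0.16 in whole Swim and -0.19 in ventral Handling. These became -0.14, -0.10 and -0.13 after subtraction. By contrast 14 genes on chromosome 7 from Zfp180 to Zfp526, with a median GC content of 50.3% and a KRAB-A-like run in 1, had -0.03 in ventral Swim and no call. Neighbours in a cluster share sequence and possibly reads, and they are not independent of each other.

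The table of ventral against dorsal Homecage hippocampus held the most Zfp calls of the 10. Of 330 Zfp genes 33 were higher and 47 lower in ventral hippocampus in the authors' deposited table, or 10% and 14.2%, beside 18.4% and 20% of all 13754 genes. The direction of this split depended on the scaling: with total-count scaling, which shifts every log2 difference of this table by 0.04, 48 were higher and 36 lower. Subtraction of the GC trend left 19 higher and 28 lower, beside 17.5% and 14.2% of all genes. Of these 47 calls, 37 were among the original 80 and 10 were not. On the ventral side Zfp941 was at 13.997 CPM in dorsal and 32.7 in ventral Homecage, a log2 difference of 1.19 (SE 0.12, adjusted p 6.5e-22) in the authors' deposited table. The imprint-protecting factor Zfp57 went from 6.03 to 11.5 CPM (0.89, SE 0.13, adjusted p 9.6e-11) in the authors' deposited table. Zfp423, a partner of EBF factors in neural development, went from 11.5 to 19.0 CPM (0.68, SE 0.12, adjusted p 4.9e-08) in the authors' deposited table. Zfp618, which binds 5-hydroxymethylcytosine with UHRF2, had 5.44 CPM in dorsal and 8.51 in ventral (0.61, adjusted p 7.8e-07), and Zfp712 4.597 and 6.87 (0.54, adjusted p 5.5e-05) in the authors' deposited table. The authors' deposited table also puts Zfp711, linked to X-linked intellectual disability, at 0.40, Zfp2 at 0.33, Zfp612 at 0.32, Zfp260 at 0.31 and Zfp275 at 0.27. All 10 kept their call with the GC trend subtracted.

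On the dorsal side stood Zfp536, a repressor of neuronal differentiation, with 30.8 CPM in dorsal and 21.4 in ventral Homecage (-0.56, SE 0.07, adjusted p 8.4e-14 in the authors' deposited table). Zfp608 (-0.35), its relative Zfp609 (-0.28), known from migrating cortical neurons, Zfp827 (-0.33), Zfp46 (-0.35) and Zfp523 (-0.42) were lower in ventral hippocampus in the authors' deposited table and kept their call with the GC trend subtracted. The microcephaly gene Zfp335 (-0.41), Zfp651 (-0.46), Zfp653 (-0.47) and Zfp513 (-0.42) were lower in the authors' deposited table, but their calls were lost after that step (adjusted p 0.0714, 0.056, 0.0692 and 0.528). The lowest value, -1.27 for Zfp771, also stood in this authors' deposited table. Zfp189 was lower in ventral hippocampus (-0.37, SE 0.10, adjusted p 0.00153), and Zfp365 (0.09, adjusted p 0.20) and Zfp462 (0.15, adjusted p 0.071) were not called in the authors' deposited table or in any other. By GC content the low class had 13 higher and 2 lower, the middle class 14 and 2, and the high class 6 and 43. All genes had a relation of the same sign: Spearman's rho of the log2 difference on GC content was -0.37, against -0.45 for Zfp genes. Cell type markers moved as well. Hippocampal neuron markers were lower in 7 of 8 cases (median -0.69, summed means 63407 in dorsal and 51939 in ventral), oligodendrocyte markers in 3 of 3 (-0.67, 93310 and 67259) and microglia markers in 2 of 3 (-0.23). Thalamus markers were higher in 2 of 3 (0.71, summed means 1037 and 2061). None of these was at 0 in either group, and their part in the Zfp values was not tested.

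**Figure D5:**
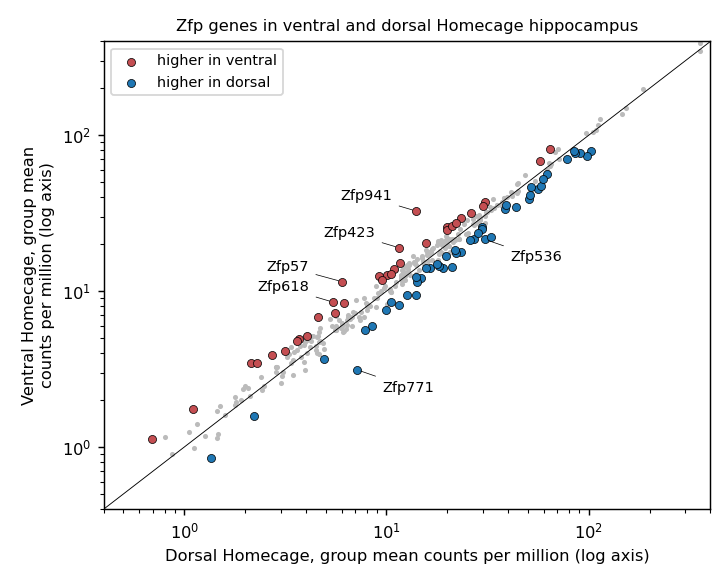
Group mean level (CPM, log axes) of each Zfp gene in ventral against dorsal Homecage hippocampus, with genes called as deposited in red (33 higher in ventral) or blue (47 higher in dorsal; 48 and 36 with the total-count scaling of the axes) and the line of equal level. Of the labelled genes, Zfp941, Zfp423, Zfp57 and Zfp618 lie above the line and Zfp771 and Zfp536 below it.

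The response to a treatment was also compared between regions, as the log2 fold change in ventral less that in dorsal hippocampus, over its SE, adjusted by Benjamini-Hochberg over all genes. The ventral and dorsal Homecage groups are the baselines of this difference, so it is not separate from the ventral against dorsal Homecage values above. The part of the Homecage groups in these differences was not tested. For Handling 0 of 329 Zfp genes differed, beside 0.0889% of all genes, and 5 had an unadjusted p under 0.05. For Restraint 4 of 328 were higher in ventral and 0 lower, beside 1.75% and 0.229% of all genes. For Swim 16 of 329 were higher and 20 lower, beside 6.93% and 3.29% of all genes. Thalamus markers had a median of 0.21 in dorsal Swim, with 1 of 3 higher, against -0.46 in ventral Swim, with 2 of 3 lower. Hippocampal neuron markers had -0.16 in dorsal Swim, with 0 of 8 called, against 0.15 in ventral Swim, with 2 of 8 higher, and the part of these markers in the regional differences was not tested. Zfp523 led the Swim differences at 0.50 (SE 0.10, adjusted p 0.0011), with -0.24 in dorsal and 0.26 in ventral hippocampus in the authors' deposited tables. Zfp580 had -0.61 and 0.44, Zfp628 -0.21 and 0.54, Zfp771 -0.79 and 0.71, and Zfp513 -0.29 and 0.20 in the authors' deposited tables. Zfp260 went the other way with 0.17 in dorsal and -0.23 in ventral hippocampus in the authors' deposited tables. In the Restraint comparison the values were -0.25 and 0.17 for Zfp316, -0.82 and 0.46 for Zfp771, -0.15 and 0.18 for Zfp523 and -0.53 and 0.20 for Zfp865, dorsal then ventral, in the authors' deposited tables. With the GC trend subtracted from both tables no Zfp gene differed between regions after any of the 3 treatments by this normal test, and 11, 5 and 27 genes in all did after Handling, Restraint and Swim. The response of Zfp189 was in neither set of calls.

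Read by role, the 17 measured genes with parts in RNA, ribosome or ubiquitin pathways (16 in dorsal Restraint; Zfp36l1 and Zfp36l2, relatives of Zfp36 outside the name rule, included) had 1 call among the Restraint tables, Zfp36, and 1 in ventral Swim, Zfp598. Over all genes 1.48% were higher in ventral Restraint, where Zfp36 was called, and in ventral Swim 4.65% were higher and 2.29% lower. Zfp598 was lower in ventral than dorsal Homecage hippocampus (-0.36, adjusted p 3.3e-04) in the authors' deposited table. Its calls in both tables were lost with the GC trend subtracted. The 21 or 22 measured genes of neural development, which include Zfp804a and Zfp804b from outside the name rule, held the 4 calls of Zfp189. In ventral Swim they also had falls of Zfp711 (-0.30, adjusted p 0.027) and Zfp292 (-0.20, 0.03) in the authors' deposited table. In ventral against dorsal Homecage 3 of these 22 were higher and 9 lower, beside 18.4% and 20% of all genes, and 3 and 5 with the GC trend subtracted. The 11 genes tied to imprinting and retroelement silencing had a median of -0.18 in whole Swim and -0.21 in ventral Swim, where Zfp429 (-0.63, adjusted p 0.0233) and Zfp568 (-0.43, 0.0439), a repressor of an Igf2 promoter, were lower in the authors' deposited table. With the GC trend subtracted these medians were -0.13 and -0.08, and Zfp429 (-0.53, adjusted p 0.28) and Zfp568 (-0.41, adjusted p 0.221) were not called. Of these 11, Zfp57 alone was called between regions.

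Genes listed as KRAB corepressor machinery were read beside the Zfp genes. Of 30 measured corepressor genes, 0 were called in the 8 treatment tables other than ventral Swim. In those 8 tables at most 1.48% of all genes were higher and at most 0.916% lower, both in ventral Restraint. In ventral Swim 4.65% of all genes were higher and 2.29% lower. There Ehmt2 rose (0.22, adjusted p 0.0325) and Atrx (-0.17, 0.0293) and Cbx3 (-0.15, 0.0383) fell in the authors' deposited table, and none of these calls was kept with the GC trend subtracted. Between regions 6 of the 30 were higher and 7 lower in ventral Homecage, beside 18.4% and 20% of all genes, and 3 and 6 with the GC trend subtracted. Among the 13 were the chromatin remodelling subunit Mta2 (-0.36), the deacetylase Hdac1 (-0.28), the DNA methyltransferase Dnmt1 (0.30) and the heterochromatin protein gene Cbx5 (0.30) in the authors' deposited table. Trim28 was also lower (-0.16, adjusted p 0.0136 in the authors' deposited table). With the GC trend subtracted Trim28 was not called (adjusted p 0.479). The 67 genes of the C2H2 families Zkscan, Zscan, Zbtb and Klf had a median of -0.09 in whole Swim, beside -0.11 for Zfp genes, and -0.03 in ventral Swim, beside -0.10. In ventral Restraint 3 of the 67 rose and 1 fell, beside 1.48% and 0.916% of all genes, led by Klf2 at 1.66 in the authors' deposited table. In ventral against dorsal Homecage 11 of the 67 were higher and 15 lower, beside 18.4% and 20% of all genes, and 6 and 11 with the GC trend subtracted. The falls included Zbtb20 at -0.90, Zbtb18 at -0.74 and Klf13 at -0.64 in the authors' deposited table.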

How the data were processed

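The 10 tables compare group means. Per the file headers, each holds the authors' mean estimated count of either group, their fold change as a ratio, its log2 value, and a p-value with an adjusted p. Which test gave the deposited p-values, and which program counted, is not given in the sources used here. Bowtie 0.12.2 and the build mm8 are listed in the submitters' processing notes with no role. Repeated entries (144 to 148 per table) were dropped, Zfp433 among them with identical values, which left 13610 to 13784 genes.

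Calls are the authors' adjusted p under 0.05 over a whole table. The SE divides the absolute log2 fold change by the normal quantile that its p corresponds to. Alternatives subtracted a lowess trend (fraction 0.3) on GC content or on log2 exon length from GENCODE M21 (GRCm38), with a value for 99.76% of genes, rescaled to total counts, required a mean count of 100, or widened the name rule. Levels are CPM of group means. A C2H2 finger was C, 2 to 4 residues, C, 12 residues, H, 3 to 5 residues, H in the translated GENCODE coding sequence, used in place of the planned RefSeq protein. The genes and lists were chosen with earlier results of these data known. Named genes are all called Zfp genes of a table up to 8, otherwise the 6 risen and 6 fallen with the lowest adjusted p, 10 and 10 between regions, up to 6 per regional difference of response, the 8 highest per length, Zfp36, Zfp189, Zfp57, Zfp365, Zfp423, Zfp462 and Zfp238, and up to 4 called genes for each other list. Other named genes were chosen after their values were seen. Scripts used Python 3.11.15, pandas 2.3.3, scipy 1.17.1 and statsmodels 0.14.6 and were tested on simulated data.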

Additional observations from a re-analysis of the deposited data

Results flagged for a closer look

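The response of 4 Zfp genes to Restraint and of 36 to Swim differed between ventral and dorsal hippocampus by the normal test of the difference, with Benjamini-Hochberg adjustment over all genes. These were 4 of 328 Zfp genes tested for Restraint and 36 of 329 for Swim. Over all genes 1.75% were higher in ventral and 0.229% lower for Restraint. For Swim 6.93% of all genes were higher and 3.29% lower. Values are the log2 fold change in ventral less that in dorsal hippocampus. They rest on the same Homecage groups as the ventral against dorsal Homecage values and are not separate from them. After Restraint they were 0.419 for Zfp316, 1.28 for Zfp771, 0.329 for Zfp523 and 0.725 for Zfp865. After Swim 16 were positive. They were 1.51 for Zfp771, 1.04 for Zfp580, 0.822 for Zfp865, 0.749 for Zfp628 and 0.613 for Zfp219. Next came 0.552 for Zfp579, 0.502 for Zfp64, 0.498 for Zfp523, 0.487 for Zfp574 and 0.484 for Zfp513. The rest were 0.48 for Zfp423 and for Zfp444, 0.42 for Zfp668, 0.376 for Zfp316, 0.361 for Zfp598 and 0.303 for Zfp335. The 20 negative values after Swim began with -1.05 for Zfp934, -0.807 for Zfp995, -0.63 for Zfp959, -0.589 for Zfp825 and -0.575 for Zfp943. They went on with -0.573 for Zfp712, -0.545 for Zfp946, -0.504 for Zfp738, -0.477 for Zfp654 and -0.448 for Zfp966. Then came -0.446 for Zfp748, -0.436 for Zfp788, -0.43 for Zfp40, -0.421 for Zfp65 and -0.399 for Zfp260. The smallest were -0.369 for Zfp655, -0.367 for Zfp292, -0.335 for Zfp719, -0.319 for Zfp617 and -0.311 for Zfp638. With the trend on GC content subtracted from both tables, 0 of these 40 differences was called.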

How the results depend on the processing

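Subtracting the GC trend moved the number of called Zfp genes from 3 to 0 in whole Swim, 2 to 1 in dorsal Restraint, 7 to 4 in ventral Restraint, 35 to 2 in ventral Swim and 80 to 47 in ventral against dorsal Homecage. It moved the differing regional responses from 4 to 0 for Restraint and from 36 to 0 for Swim. Subtracting the length trend gave 1 call in whole Swim and 1 in dorsal Swim, and total-count scaling gave 1 call in dorsal Swim and 1 regional difference for Restraint. In ventral against dorsal Homecage total-count scaling turned the split of calls from 33 higher and 47 lower to 48 higher and 36 lower. The cause of these moves was not tested. Of 45 values of single named genes, 21 lost their call under the GC trend, 2 under the length trend and 0 under total-count scaling, and none reversed. The filter on mean count and the wider name rule kept every count within 1.5 times. That filter left out Zfp36 in ventral Restraint and Zfp82 in ventral Restraint and ventral Swim. No paired analysis was possible because the tables hold group means, with no value per library or replicate number. For the same reason leaving out each replicate and the replicate block were not run, and the part of any 1 library in a call is unknown here. The median SE of a Zfp gene ran from 0.08 to 0.12 over the tables, against 0.07 to 0.10 over all genes.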
